A study of Homo sapiens with 5 samples.

Results

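The genes described here encode the nuclear-made proteins of oxidative phosphorylation, and they were measured in MCF12A, a cell line of human mammary epithelium that does not form tumours. They were chosen by symbol alone: every gene whose symbol begins with NDUFA, NDUFB, NDUFC, NDUFS, NDUFV, UQCR, ATP5 or COX followed by a digit, with SDHA, SDHB, SDHC, SDHD and CYC1 added by name. Each gene was read from the brightest of its probes that are annotated to exactly 1 symbol. The rule found 97 of 17958 named genes on the 3 arrays of the exposure experiment and 96 of 18417 on the 2 arrays of the clone experiment. Over both experiments it found 100 of 18724 genes, of which 93 were measured in both.

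Of these 100 genes, 80 encode structural subunits: 35 of complex I, 3 of complex II, 8 of complex III, 17 of complex IV (its tissue isoforms included) and 17 of complex V. The same prefixes also took in 15 assembly factors (the NDUFAF proteins and COX10 to COX20), the ATP synthase inhibitor ATP5IF1 and 4 other transcripts, namely ATP5MGL, the pseudogenes UQCRBP1 and ATP5F1EP2, and NDUFV1-DT, which is named as a divergent transcript of NDUFV1. SDHB, NDUFA4, NDUFA4L2, UQCRFS1 and NDUFAF8 are among the genes that have no probe with a single symbol among the probes used, and they are not analysed here. None of the 13 mitochondrially encoded subunits on the list of pathway genes is analysed here either (0 of 13 measured). The label of these genes as subunits therefore holds for most but not all of them, and the assembly factors are given apart from the subunits below.

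Oxidative phosphorylation takes place in the inner mitochondrial membrane. Complex I takes electrons from NADH and complex II, which is also the succinate dehydrogenase of the citric acid cycle, takes them from succinate. They pass through ubiquinone, complex III and cytochrome c to complex IV, which reduces oxygen to water, and complex V, the ATP synthase, makes ATP from the proton gradient that complexes I, III and IV build. All these complexes except complex II hold subunits from both the nuclear and the mitochondrial genome, so the nuclear genes described here supply only a part of each. Assembly factors help to build the complexes and are not themselves part of the finished enzyme. In cells that oxidise ethanol with dehydrogenases, the steps to acetaldehyde and on to acetate yield NADH, the substrate of complex I.

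RNA came from 5 MCF12A monolayer cultures, with 1 array per group. The first experiment compared an untreated culture with a culture kept in 2.5% ethanol for 4 weeks and another kept in 1% acetaldehyde for 4 weeks, so both exposures share 1 control array. The second compared a single cellular clone, taken from ethanol-exposed cells that had grown in soft agar, with its own control. Soft agar tests for growth without anchorage, and the clone was then grown as a monolayer again and labelled with 2.5% ethanol for 4 weeks. All 5 cultures are therefore the same cell line in the same serum and growth factors, and the clone is 1 clone. The labels give the ethanol that preceded the soft agar step in mM in another place, so no dose is read from the clone's values. The clone's control is labelled as unexposed but carries a soft agar selection tag too, and what it was taken through is not settled by the labels.

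The values are intensities from Affymetrix human Gene ST arrays, and the experiments were deposited as separate tables. Each array held 33297 probes, with median intensities of 69.98 to 70.61 in the first table and 89.9 to 94.0 in the second. The median of each table, 70.2 and 92.0, served as a floor: a difference was counted only where the brighter of the arrays compared reached it. The floor is not a measured background. Of the genes described, 7 stayed under it in each comparison, which left 90 in the ethanol comparison, 90 in the acetaldehyde comparison and 89 in the clone. With 1 array per group there is no spread between cultures to set a difference against, so no test was run, and counts past a fold are read only against the share of all genes past the same fold. Probe brightness differs between probes for reasons other than transcript level, so no gene's level was ranked against another's, and no level was compared between the tables.

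Mammary epithelial markers were present in all arrays: 7 of 8 were measured and 7 lay above the floor in each array except that of the clone, where CDH1 (43.6) and EPCAM (48.7) lay under it, leaving 5 of 7. In the ethanol array CDH1 read 117 against 1114 in its control, and KRT5, KRT14 and EPCAM were lower as well. KRT8 (3068 against 1474) and KRT18 (1004 against 986) were higher there, and KRT19 was equal at 122. In the clone KRT8 (3921 against 3765) and KRT18 (1589 against 1380) were higher than in its control, while KRT5, KRT14 and KRT19 were lower. The summed intensity of 7 fibroblast markers was 467, 539.7 and 542 in the control, ethanol and acetaldehyde arrays. It was 811 in the clone's control and 1684 in the clone. Of these markers COL1A1, COL3A1 and DCN were higher in the clone, while COL1A2 (142 and 123) and PDGFRB (136 and 103) were lower. LUM and PDGFRA were under the floor on both of its arrays. At most 2 adipocyte markers, 1 of 4 endothelial markers and 1 of 3 muscle markers passed the floor in any array. Of 5 leukocyte markers, 2 passed it in every array. The part of these changes in the values below was not tested.

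The first question was whether 4 weeks in ethanol went with a different level of respiratory chain transcripts. The structural subunits in ethanol lay close to control in every complex. Of the 90 genes past the floor, 0 were higher and 0 were lower by 2-fold or more, against 2.63% and 2.44% of all 11264 genes. At 1.5-fold 1 gene was higher and 0 were lower, against 5.3% and 5.11% of all genes. At 1.2-fold, a size added after the values were seen, 3 were higher and 4 lower, against 11.5% and 11.5%. The median difference of these genes was 0.00 on the log2 scale, as it was for all genes, and their standard deviation across genes was 0.15 against 0.50.

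The gene past 1.5-fold in ethanol was NDUFAF1, a factor needed to assemble the membrane arm of complex I. It read 143 in the control, 229 in ethanol and 199 in acetaldehyde, so the ethanol value was 1.60-fold higher (log2 difference 0.67), and the acetaldehyde value lay between the others (0.47). NDUFAF7, another complex I assembly factor, had the same order with 139, 203 and 179 (0.55 and 0.37). These were the 2 genes of the 15 assembly factors past 1.2-fold in ethanol. The other assembly factors lay between -0.13 (COX10) and 0.20 (COX11).

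Among subunits in ethanol, NDUFS1 and NDUFS6, which both belong to the electron-input module of complex I, lay on opposite sides of the control. NDUFS1, the largest complex I subunit and a carrier of iron-sulfur clusters, read 579 in the control, 725 in ethanol and 665 in acetaldehyde (0.32 and 0.20). NDUFS6, a small zinc-binding subunit, read 689, 467 and 629.8 (-0.56 and -0.13), a 1.48-fold lower value in ethanol and the lowest difference of all these genes. It was the only structural subunit of complex I past 1.2-fold downwards in ethanol, and NDUFS1 was the only one upwards. The 34 genes of complex I had a median of 0.00.

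Complex II showed no common direction in ethanol. SDHA, the flavoprotein that binds succinate, read 2274 in the control, 1867 in ethanol and 2363 in acetaldehyde (-0.28 and 0.06). 2 further probes, whose annotation lists SDHA together with its pseudogenes SDHAP1 and SDHAP2, were also lower in ethanol (-0.35 and -0.21) and slightly higher in acetaldehyde (0.09 and 0.05). SDHC, a membrane anchor, read 2823, 2897 and 2984. SDHD, the other anchor, read 1106, 1254 and 1258 on its brightest probe (0.18 and 0.19), whereas its other probe gave an equal 684 on all 3 arrays.

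In complexes III and IV no gene passed 1.2-fold in ethanol. CYC1, the cytochrome c1 of complex III, read 1659 in the control, 1695 in ethanol and 1776 in acetaldehyde. COX6A1, a subunit of the nuclear shell of complex IV, had the lowest ethanol difference there, 3397 against 2939 (-0.21). In complex V, ATP5MK, a small membrane protein of the ATP synthase dimer, read 3734 in the control, 3036 in ethanol and 3820 in acetaldehyde (-0.30 and 0.03). ATP5IF1, the protein that blocks ATP hydrolysis by complex V when the gradient fails, read 241, 189.5 and 227 (-0.35 and -0.09). The catalytic subunit ATP5F1B read 4858 in both the control and ethanol and 4796 in acetaldehyde.

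**Figure D1:**
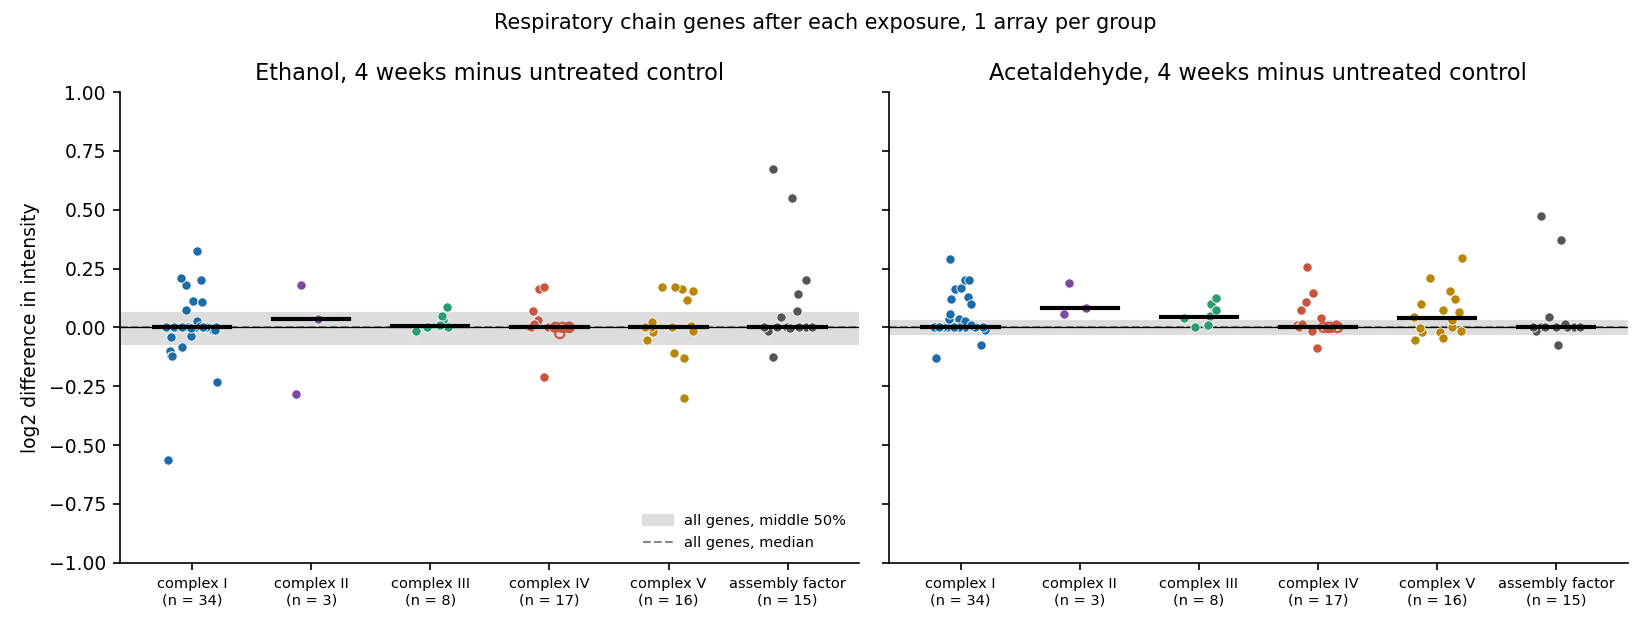
Log2 difference in intensity from the untreated control for each gene (points; open circles lie under the floor) by complex, in ethanol (left) and acetaldehyde (right), with 1 array per group; black bars are medians, and the grey band is the middle 50% of all genes past the floor. Most points sit on or near 0, and NDUFAF1 (0.67) and NDUFAF7 (0.55) are the highest points of the ethanol panel and NDUFS6 (-0.56) is the lowest.

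In acetaldehyde the differences were smaller still. Of the 90 genes, 0 were higher and 0 lower by 2-fold or more, against 1.03% and 0.0536% of all 11194 genes. At 1.5-fold the counts were again 0 and 0, against 2.16% and 0.411%, and at 1.2-fold 4 genes were higher and 0 lower, against 6.05% and 3.21%. The 4 were NDUFAF1 and NDUFAF7, given above, NDUFB6 (306 against 373, 0.29), an accessory subunit of complex I, and ATP5MG (1204 against 1476, 0.29), a subunit of the ATP synthase membrane part. COX6C, a complex IV subunit, followed with 1970 against 2356 (0.26). The lowest difference was that of NDUFS6 (-0.13), and the median was 0.00 with a standard deviation of 0.10 against 0.25 for all genes.

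More of these genes lay above the acetaldehyde control value than below it: 44 were higher, 16 lower and 30 equal, while of all genes past the floor 30.2% were higher, 31.9% lower and 37.9% equal. All 3 genes of complex II and 7 of 8 genes of complex III were higher, with medians of only 0.08 and 0.05. In ethanol the split was 37 higher, 26 lower and 27 equal, beside 34.2%, 35.1% and 30.7% of all genes. These splits depend on scaling, because many differences are exactly 0 or close to it. A lowess correction moves equal values off 0, so the shares after it also count genes that had no difference. With a lowess correction 47.8% of the genes lay below the control in acetaldehyde against 47.9% of all genes, and 53.3% against 53.5% in ethanol. After a second quantile normalisation 51 of 90 (56.7%) lay below in acetaldehyde, against 73.2% of all genes. Both exposures were set against the same control array, so these splits are not independent of each other.

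Exactly equal values were common in this table and bear on how such small differences are read. Within a tolerance of 1e-06 on the log2 scale, 43.9% of all probes were equal in ethanol and control and 48.2% in acetaldehyde and control, against 1.02% in the clone and its control. Of the 97 genes, 24 had the same value on all 3 arrays (24.7%, against 40.7% of all genes without a floor). Among the 24 were NDUFA12 (1533), NDUFA6 (647), COX6B1 (659.7) and COX16 (1533). The 24 genes made up 10 of 34 genes in complex I, 0 of 3 in complex II and 1 of 8 in complex III. They made up 5 of 17 in complex IV, 0 of 16 in complex V and 6 of 15 assembly factors. In 12 genes (12.4%, against 8.60% of all genes) the ethanol and acetaldehyde arrays were equal and differed from the control. NDUFV2, the partner of NDUFV1 in NADH oxidation, was among them, with 783 in the control and 899 in both exposures. Past the floor, 21.1% of these genes were equal on all 3 arrays, against 26.0% of all genes, and the source of the equal values was not tested.

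The second question was how the respiratory chain genes of the soft agar clone stood against its control. In the clone most structural subunits were lower than in its control, by modest amounts. Among the NDUFAF assembly factors of complex I, 5 of 6 past the floor were higher. Of the 89 genes past the floor, 59 were below their control and 30 above (66.3% below, against 50.8% of all 12262 genes). Their median difference was -0.21 on the log2 scale, against -0.02 for all genes. The 75 structural subunits past the floor had a median of -0.27, with 54 of them below. The middle 50% of the 89 genes ran from -0.50 to 0.10, while that of all genes ran from -0.42 to 0.61.

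Large upward differences in the clone were rarer than among all genes, while downward ones were rarer at 2-fold but not at 1.5-fold. At 2-fold or more 0 genes were higher and 3 lower, against 14.7% and 5.83% of all genes. At 1.5-fold 8 were higher and 14 lower, against 25.6% and 15.2%. In shares, 8.99% of the 89 genes were higher and 15.7% lower. As deposited the downward share was near that of all genes, but it was 18.0% against 12.6% with a lowess correction and 24.7% against 17.3% after a second quantile normalisation. At 1.2-fold 14 were higher and 42 lower, against 37.5% and 36%. The standard deviation across these genes was 0.46, against 0.97 across all genes.

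The direction depends in part on how the arrays of the clone and its control are scaled. The median over all probes of the log2 difference between them was -0.17. It is not the difference between the medians of the arrays, which were 89.9 and 94.0. With that -0.17 subtracted from every difference (centring), the median of the 89 genes became -0.048. Of them 48 were below 0 (53.9%, against 42.1% of all genes). Past 1.5-fold 10 were then higher and 7 lower (11.2% and 7.87%), against 31.7% and 9.48% of all genes. The median lay 0.20 below that of all genes as deposited, a gap that centring cannot change since it takes the same constant from every gene. It lay 0.25 below with a lowess correction for brightness and 0.23 below after a second quantile normalisation. A single gene with a difference between -0.17 and 0 as deposited changes sign with centring. The statements on complexes below therefore give the median as deposited and, where centring turns its sign, the centred value.

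**Figure D2:**
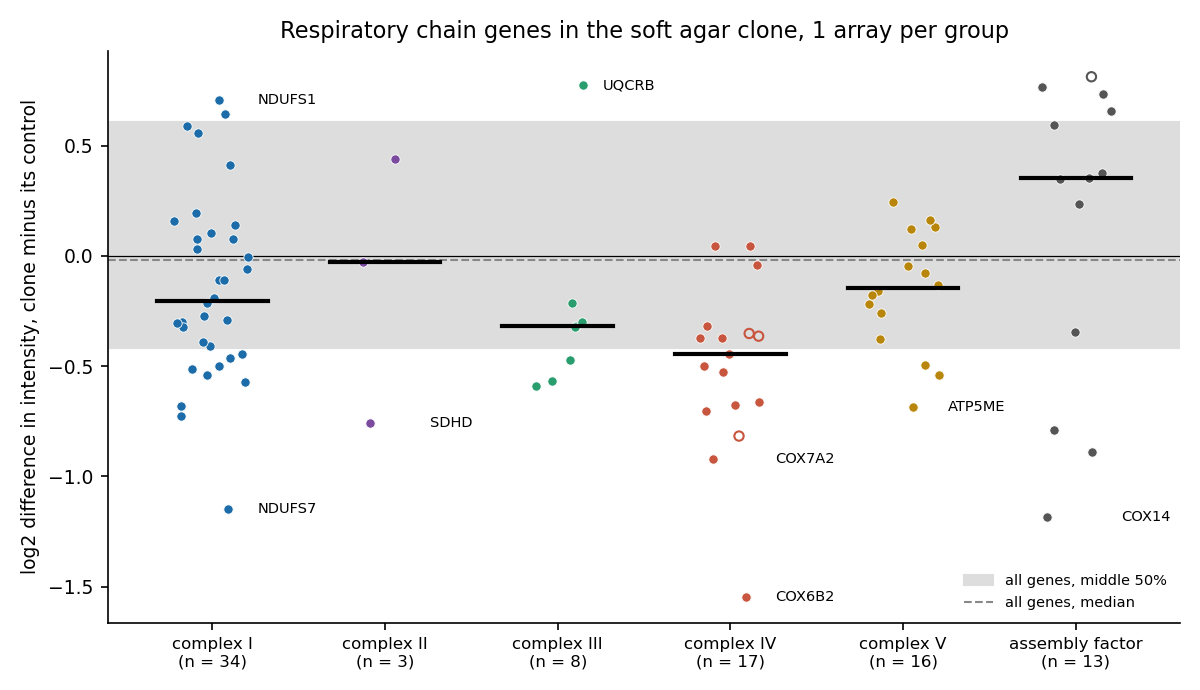
Log2 difference in intensity between the clone and its control for each gene (points; open circles lie under the floor) by complex, with 1 array per group; black bars are medians, and the grey band and dashed line are the middle 50% and the median of all genes past the floor. The median bar of complex IV is the lowest at -0.45 over its 17 genes, and that of the assembly factors is the highest at 0.36 over 13. The bars include genes under the floor, while the band does not. Past the floor these medians are -0.47 over 14 genes and 0.35 over 12.

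In complex I 22 of 34 genes were lower in the clone, with a median of -0.20 (-0.04 centred). The lowest was NDUFS7, which carries the last iron-sulfur cluster before ubiquinone: it read 554 in the control and 250 in the clone, a 2.21-fold lower value (log2 difference -1.15). NDUFA1, an accessory subunit, read 786 and 475 (-0.73). NDUFV1, which binds NADH and flavin, read 1323 and 827 (-0.68). All 3 were past 1.5-fold.

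Other complex I subunits went the opposite way in the same clone. NDUFS1 was the highest, with 530 in the control and 867 in the clone (1.63-fold, 0.71). NDUFV2 read 396 and 618 (0.64), and NDUFA5, an accessory subunit of the peripheral arm, read 150.2 and 226 (0.59). NDUFV1 and NDUFV2 are the core pair of the NADH-oxidising module and differed in opposite directions. The 9 NDUFS and NDUFV genes had a median of -0.39 and a standard deviation of 0.61 across genes, while the 25 NDUFA, NDUFB and NDUFC genes had a median of -0.11 and a standard deviation of 0.34.

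The 3 measured genes of complex II each differed in their own way. SDHA, the catalytic subunit, read 3789 in the control and 3720.3 in the clone (-0.03). SDHD read 2486 and 1471 on its brightest probe, a 1.69-fold lower value (-0.76), and its other probe was lower by 2.04-fold, from 1169 to 574 (-1.03). SDHC read 2035 and 2762 on its brightest probe (0.44), but its other probe gave 499 and 521 (0.06). The lower SDHD value in the clone was therefore seen on both of its probes, and the higher SDHC value on 1 of 2. The complex II median was -0.03 and 0.14 centred.

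Complex III was lower in 7 of 8 genes, with a median of -0.32 (-0.15 centred). UQCR11, a small subunit, read 682 in the control and 453 in the clone (-0.59). UQCRQ, which lies close to the cytochrome b subunit, read 667 and 450.4 (-0.57), and the core protein UQCRC1 read 634 and 458 (-0.47). CYC1, which passes electrons to cytochrome c, read 3180.3 and 2555 (-0.32). UQCRC2, the other core protein, read 3655 and 3151 (-0.21), and UQCRH, the hinge protein, read 130.3 and 106 (-0.30). The exception was UQCRB, a ubiquinone-binding subunit, which read 87.7 in the control, under the floor, and 150.2 in the clone, so the clone was at least 1.63-fold higher when the control is taken at the floor.

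Complex IV stood lowest of the complexes, with 15 of 17 genes lower and a median of -0.45. All genes without a floor had 58.8% lower and a median of -0.14. Of the 14 complex IV genes past the floor 12 were lower, against 50.8% of all genes. Their median was -0.47 as deposited and -0.31 centred. The isoforms found in most tissues were among the lower genes. COX7A2 read 1775 in the control and 936 in the clone (1.90-fold lower, -0.92). COX8A read 1489 and 914 (-0.70), COX7B 288 and 199.5 (-0.53), COX6B1 1799.9 and 1274 (-0.50) and COX6A1 5477 and 4235 (-0.37). COX7A2L, a COX7A2 relative known for its part in supercomplexes, read 795 and 497 (-0.68). The genes closest to their controls were COX6C (1488 and 1537, 0.05), COX4I1 (711 and 734, 0.04) and COX5B (1886 and 1831, -0.04). With centring COX6C, COX4I1 and COX5B lay above 0.

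The tissue isoforms of complex IV were mostly dim in these cells. COX6B2, COX7B2 and COX8C, isoforms known from testis, and COX7A1, known from heart and muscle, were under the floor on all 3 arrays of the exposure table, with COX8C for example at an equal 23.7 on each. In the clone experiment COX6B2 read 100.1 in the control and 34.3 in the clone. This was the lowest difference of all these genes (-1.55), but with the clone taken at the floor it was at least 1.09-fold. COX4I2, the isoform known from lung and from low oxygen, read 126 and 79.4 (-0.66), at least 1.36-fold lower by the same rule. COX6A2, the muscle isoform of COX6A1, lay above the floor in both experiments, with 134 in the untreated control and ethanol, 126 in acetaldehyde, 420.3 in the clone's control and 308 in the clone (-0.45). COX7A1 (84.3 and 65.5), COX7B2 (21.2 and 12.0) and COX8C (43.1 and 33.8) were under the floor on both clone arrays.

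Complex V lay closer to its control than complexes I, III and IV. Of its 16 genes 11 were lower, and the median was -0.15 as deposited but 0.02 centred, so no direction holds under both scalings. ATP5ME, ATP5MG and ATP5MJ, small proteins of the membrane part, were lowest: ATP5ME read 694 in the control and 431 in the clone (-0.69), ATP5MG 1964 and 1349.7 (-0.54) and ATP5MJ 789 and 559 (-0.50). The catalytic pair ATP5F1A (1398 and 1449, 0.05) and ATP5F1B (7260 and 7028, -0.05) lay close to the control. ATP5PD, part of the peripheral stalk, was highest (1183 and 1401, 0.24), before ATP5MC1 (0.16), a gene of the proton-carrying ring, and ATP5F1C (0.13), the central stalk. The inhibitor ATP5IF1 read 331 and 322 (-0.04).

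**Figure D3:**
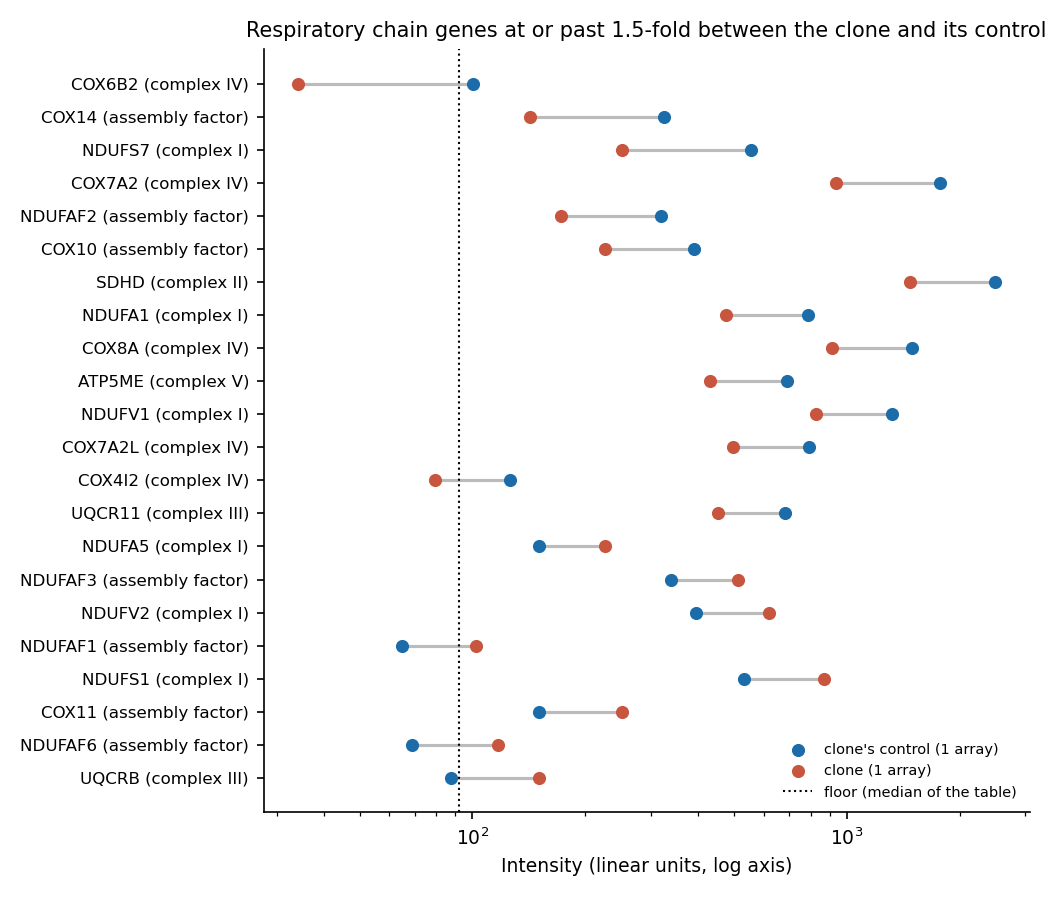
Intensity (log axis) of the 22 genes at or past 1.5-fold in the clone (red) and its control (blue), 1 array each; the dotted line is the floor at 92.0. The 14 genes lower in the clone are above the 8 higher ones; COX6B2 and COX4I2 in the clone, and UQCRB, NDUFAF6 and NDUFAF1 in the control, lie left of the floor.

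The assembly factors moved apart from the subunits and from each other. Their 13 genes had a median of 0.36 with 9 higher, and past the floor the median of 12 was 0.35 as deposited and 0.52 centred. The higher ones were mostly complex I factors: 6 of 7 NDUFAF genes were above their control, and 5 of 6 past the floor. Of all genes 40.5% were above their control without a floor and 49.0% past it. NDUFAF6 read 68.9 in the control and 117 in the clone (0.77), NDUFAF1 65.0 and 102 (0.66) and NDUFAF3 339 and 511 (0.59). The controls of NDUFAF6 and NDUFAF1 were under the floor, which leaves at least 1.27-fold and 1.11-fold. NDUFAF5 was under the floor on both arrays.

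The lowest assembly factor was COX14, which couples the making of the COX1 subunit to complex IV assembly: it read 324 in the control and 143 in the clone (2.27-fold lower, -1.18). NDUFAF2, a late complex I factor, read 319 and 172 (-0.89) and its other probe 131 and 106 (-0.30). COX10, which makes the haem A precursor for complex IV, read 389 and 225 (-0.79). COX11, which delivers copper to the same complex, was higher instead, with 151 and 251 (0.74). The 6 measured COX assembly factors thus split into 3 above and 3 below, with a median of 0.00.

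The clone differences were also read by brightness. All genes past the floor were ranked by brightness into 4 groups of equal size. Of the 89 genes 55 lay in the brightest group, and 38 of these were below their control with a median of -0.29. All genes of that group had a median of 0.06 with 46.0% below. In the next group 14 of 19 were below, with a median of -0.22 against 0.07 for all genes. In the group after that 3 of 8 were below, with a median of 0.26 against -0.04. In the dimmest group 4 of 7 were below, with a median of -0.11 against -0.19. The part of brightness in these differences was not tested. The 58 cytosolic ribosomal protein genes, a set of bright housekeeping genes added after the values were seen, had a median of -0.09 as deposited and 0.08 centred, and 0 of them were past 2-fold. Of them 40 (69.0%) were below their control as deposited, a share close to the 66.3% of the genes described here. With centring the shares were no longer close: 15 of the 58 were below 0, beside 48 of the 89 genes described here.

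Many subunit genes have processed copies elsewhere in the genome, and the clone differences were split by this property after the values were seen. By symbol, RefSeq lists at least 1 pseudogene for 47 of the 80 subunit genes, 191 in all, for example 12 for NDUFB4, 7 for SDHD and 5 for SDHC. Past the floor, the 45 subunits with a named pseudogene had a median of -0.11 in the clone (0.05 centred), 29 were below 0 and 2 were lower by 1.5-fold or more. The 30 without one had a median of -0.45 (-0.28 centred), 25 were below 0 and 9 were lower by 1.5-fold or more, or 30.0% of them. Both groups lay below the other protein-coding genes of their kind, which had medians of 0.14 with a named pseudogene (1733 genes) and -0.02 without (9847 genes). Of those other genes 10.3% with and 15.5% without were lower by 1.5-fold or more, beside 4.44% and 30.0% of the subunits. The median log2 level of the subunits was 10.33 with and 9.07 without. Whether signal from copies reached these probes was not tested.

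Several transcription factors are known to bind promoters of nuclear respiratory genes, and short forms of their motifs were looked for in RefSeq promoter windows of build GRCh38.p14, which run from 250 bases before to 50 after a transcript start. A window was found for 81 of the 100 genes, 101 windows in all, beside 22198 windows of protein-coding genes. The letters GCGCA, then any base, then GCGC, as bound by NRF1, stood on either strand in 20 windows (19.8%), against 7.38% of all. CCGGAAG, as bound by ETS factors such as GABPA, stood in 26.7% against 12.8%, and AAGATGGC, as bound by YY1, in 12.9% against 3.53%. At least 1 of these 3 was in 48.5% against 21.2%. CCAAT (35.6% against 34.7%) was close to all promoters. TGACGTCA stood in 4 windows (3.96% against 2.26%), too few to rank beside the other letters. The last bases of the ETS letters and the first of the YY1 letters can overlap, which happened in 0 of the 101 windows and 6 of all. A match is a description of these letters and not of binding.

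The clone medians of subunits with and without a motif differed little for the NRF1 letters (-0.34 with and -0.30 without), the ETS letters (-0.34 and -0.31) and CCAAT (-0.31 and -0.31). They were further apart for the YY1 letters (-0.19 with and -0.32 without) and TGACGTCA (-0.18 over 4 genes and -0.31). None of these differences was tested. The windows printed are those of the subunits with the lowest and the highest clone difference for each motif, so that the same letters can be seen beside opposite values. For NRF1 these are SDHD (-0.76; chr11:112086623-112086922, plus strand) and NDUFA11 (0.14; chr19:5903741-5904040, minus strand), with the motif in capitals, 5′ to 3′ along the gene. In SDHD the letters read on both strands and in NDUFA11 on the opposite strand only. They begin 110 and 98 bases before the start.
SDHD: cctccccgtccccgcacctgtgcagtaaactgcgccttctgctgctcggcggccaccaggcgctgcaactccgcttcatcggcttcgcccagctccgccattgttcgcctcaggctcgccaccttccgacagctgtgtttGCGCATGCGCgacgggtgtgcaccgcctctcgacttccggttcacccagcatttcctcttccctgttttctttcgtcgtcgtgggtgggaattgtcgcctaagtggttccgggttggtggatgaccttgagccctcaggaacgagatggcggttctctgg
NDUFA11: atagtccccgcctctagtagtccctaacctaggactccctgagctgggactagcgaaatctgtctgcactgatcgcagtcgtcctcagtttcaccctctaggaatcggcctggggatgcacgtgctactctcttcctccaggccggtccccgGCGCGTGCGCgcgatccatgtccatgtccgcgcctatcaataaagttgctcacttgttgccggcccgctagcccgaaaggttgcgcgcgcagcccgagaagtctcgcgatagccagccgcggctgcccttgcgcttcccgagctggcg
For the ETS letters the lowest was again SDHD, whose match begins 77 bases before the start in the window above, and the highest NDUFS1 (0.71; chr2:206159395-206159694, minus strand). In both the match reads on the opposite strand, and the capitals in NDUFS1 show its complement.
NDUFS1: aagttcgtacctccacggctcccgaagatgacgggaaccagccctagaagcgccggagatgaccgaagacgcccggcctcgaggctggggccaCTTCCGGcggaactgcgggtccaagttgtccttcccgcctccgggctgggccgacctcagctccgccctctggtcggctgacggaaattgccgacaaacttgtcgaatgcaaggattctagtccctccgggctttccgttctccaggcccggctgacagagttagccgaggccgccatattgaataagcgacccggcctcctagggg
For YY1 the lowest was NDUFS7 (-1.15; chr19:1383657-1383956, plus strand) and the highest NDUFA6 (0.41; chr22:42090723-42091022, minus strand). The capitals begin 17 and 25 bases after the start, on the gene's own strand.
NDUFS7: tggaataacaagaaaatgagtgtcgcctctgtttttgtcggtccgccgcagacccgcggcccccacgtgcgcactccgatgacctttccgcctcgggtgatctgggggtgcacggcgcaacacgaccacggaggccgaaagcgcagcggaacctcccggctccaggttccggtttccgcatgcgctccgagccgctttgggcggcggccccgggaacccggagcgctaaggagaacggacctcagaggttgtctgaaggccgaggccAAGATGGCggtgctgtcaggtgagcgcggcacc
NDUFA6: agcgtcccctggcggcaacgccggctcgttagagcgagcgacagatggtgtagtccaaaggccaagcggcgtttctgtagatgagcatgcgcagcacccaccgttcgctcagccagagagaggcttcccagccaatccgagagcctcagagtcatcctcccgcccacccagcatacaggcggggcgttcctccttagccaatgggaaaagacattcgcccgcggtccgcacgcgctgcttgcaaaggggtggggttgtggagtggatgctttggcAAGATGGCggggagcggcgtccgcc

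Genes of the factors named above were measured as well. In the clone NRF1 read 151 in the control and 149 in the clone (-0.02), GABPA 269 and 177 (-0.60) and YY1 1440.3 and 1073 (-0.42). GABPA and YY1 were lower by 1.52-fold and 1.34-fold. No relation between these levels and the subunit values was tested, with 1 array each.

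The ethanol exposure and the clone share no array, so their differences can be set side by side. Over the 93 genes measured in both, the ethanol and clone differences had a Pearson correlation of 0.28 and a Spearman correlation of 0.25 across genes, against 0.54 and 0.30 over 17651 genes. Genes are not independent replicates, and this is a description of 4 arrays. The 7 genes past 1.2-fold in ethanol (NDUFAF1, NDUFAF7, NDUFS1, NDUFS6, SDHA, ATP5MK and ATP5IF1) all had the same sign in the clone, while 2130 of 2738 such genes did among all genes (77.8%). Over all genes described that differed in ethanol the sign was the same in 39 of 63 (61.9%), against 63.5% of all genes, and among structural subunits in 28 of 52. In 3 of the 7 genes past 1.2-fold in ethanol (SDHA, ATP5MK and ATP5IF1) the clone difference was between -0.08 and -0.03, and centring turns its sign. NDUFS1 stood at 0.32 in ethanol and 0.71 in the clone.

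**Figure D4:**
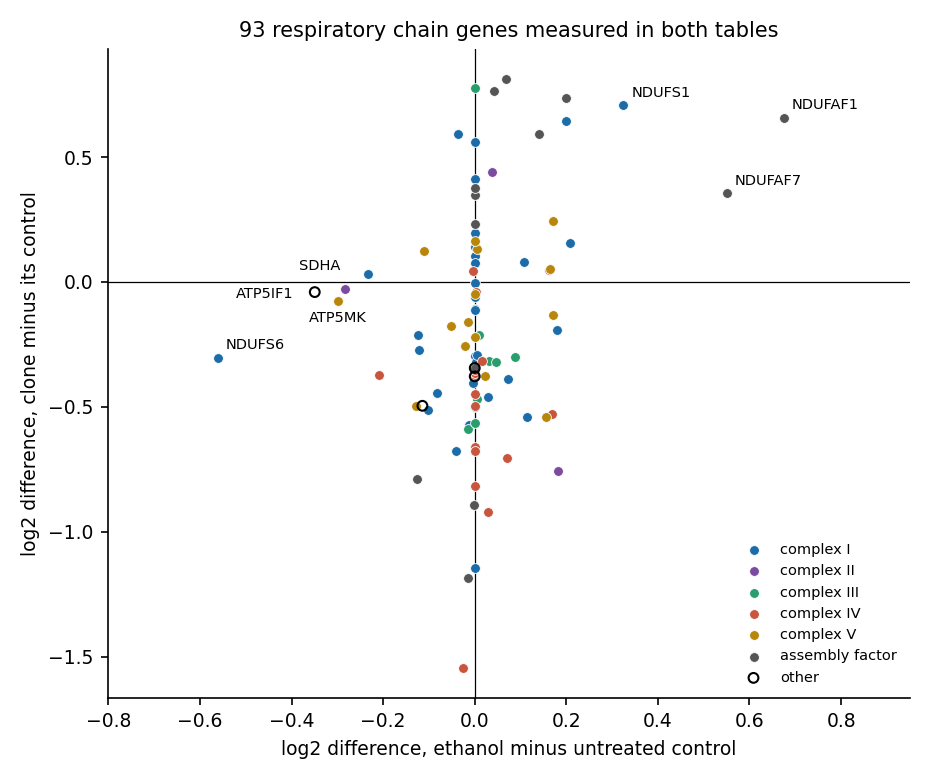
Log2 difference in ethanol (horizontal) against that in the clone (vertical) for the 93 genes measured in both tables, coloured by complex (open circles are genes of no complex), with 1 array per group and the 7 genes past 1.2-fold in ethanol named. NDUFAF1, NDUFAF7 and NDUFS1 lie at the upper right and NDUFS6 at the lower left, while most genes form a column at an ethanol difference near 0.

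The clone's other mitochondrial genes were read from lists of pathway genes. The list of mitochondrial DNA replication and transcription stood highest: 13 of 14 genes past the floor were higher, with a median of 0.78. The exception was POLG (158 and 156, -0.02). Past 2-fold 5 were higher (35.7%, against 14.7% of all genes) and 0 lower. SSBP1, which coats single-stranded mitochondrial DNA, read 217 in the control and 782 in the clone (3.60-fold). RNASEH1 read 98.5 and 263 (2.66-fold) and the helicase TWNK 97.9 and 207 (2.11-fold). TEFM (42.0 and 94.2) and MTERF1 (43.7 and 92.5) started under the floor and came to at least 1.02-fold and 1.01-fold. POLRMT and TFB2M, which also act in mitochondrial transcription, were on the list of regulators instead and were lower. POLRMT read 324 and 299 (-0.12) and TFB2M 527 and 434 (-0.28), while TFB1M of that list was higher (108 and 149, 0.46). Of 13 regulators of mitochondrial biogenesis, 8 were below their control, and 2 were past 2-fold higher (15.4%, near the share of all genes) and 0 lower, with a median of -0.06: PPARGC1A, a coactivator of respiratory genes, read 335 and 1138 (3.40-fold), and TFAM, which packages mitochondrial DNA, 131 and 325 (2.47-fold). At 1.5-fold or more 3 regulators were higher and 3 lower, against 25.6% and 15.2% of all genes. The third higher one was PPRC1 (189 and 374, 1.98-fold). The lower ones were ESRRA, a nuclear receptor that works with PPARGC1A (680.4 and 382, -0.83), GABPA (-0.60) and PPARGC1B (236 and 156, -0.60). Centring made the median of the regulators 0.11.

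Assembly factors outside the symbol rule were mostly higher in the clone as well. Of 33 past the floor 22 were higher, with a median of 0.30. Past 2-fold 7 were higher (21.2%, against 14.7% of all genes) and 2 lower (6.06%, against 5.83%). ACAD9, a complex I assembly factor, read 216 in the control and 846 in the clone (3.92-fold), TTC19, a complex III factor, 184 and 652 (3.54-fold) and TIMMDC1, another complex I factor, 950.1 and 2619 (2.76-fold). FOXRED1 (2.41-fold) and UQCC1 (2.17-fold) were higher too, as were COA7 (at least 2.17-fold) and LYRM7 (at least 1.26-fold), whose controls were under the floor. COA6, a copper-binding complex IV factor, read 526 and 167 (3.15-fold lower), and ECSIT 494 and 235 (2.10-fold lower).

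The 72 mitochondrial ribosomal proteins had a median of -0.01 (0.16 centred), with 8 past 2-fold higher (11.1%, below the 14.7% of all genes) and 0 lower. The 8 were MRPL16 (109.7 and 314, 2.86-fold), MRPL47 (354 and 943, 2.66-fold), MRPL46, MRPS23, MRPL58, MRPS11, MRPL20 and MRPL1, whose control of 43.8 was under the floor. Among 24 genes of the citric acid cycle and pyruvate dehydrogenase the median was 0.34, and 1 was past 2-fold each way (4.17%). PDK1, a kinase that inhibits pyruvate dehydrogenase, read 141 and 541 (3.84-fold higher), and MPC2, part of the mitochondrial pyruvate carrier, 1232 and 477 (2.58-fold lower). Among 19 genes of electron carriers and uncoupling the median was 0.26 and 2 were past 2-fold higher (10.5%), with COQ2, of ubiquinone synthesis, at 143 and 369 (2.58-fold) and the transhydrogenase NNT at 1648 and 3448 (2.09-fold). CYCS, cytochrome c, read 345 and 329 (-0.07).

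**Figure D5:**
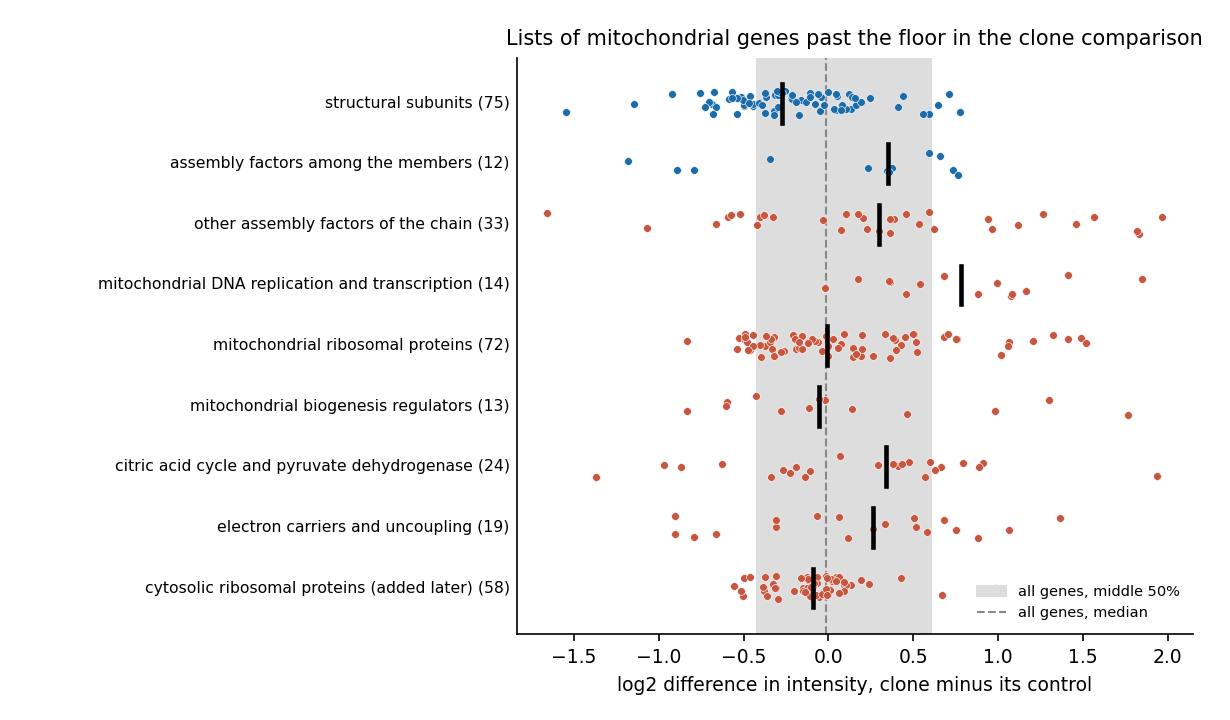
Log2 difference between the clone and its control for genes past the floor (points, number in brackets), for the structural subunits and assembly factors (blue) and other lists of mitochondrial and ribosomal genes (red), 1 array per group; black bars are medians, and the grey band and dashed line are the middle 50% and the median of all genes. The structural subunits have the lowest median (-0.27) and the genes of mitochondrial DNA replication and transcription the highest (0.78).

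In ethanol 2 genes of these lists were past 1.5-fold, both higher and both among the 24 genes of the citric acid cycle and pyruvate dehydrogenase. Of all genes past the floor 5.3% were higher and 5.11% lower by that size, so the count is not read as a trait of the list. PDK4, a kinase that inhibits pyruvate dehydrogenase, read 980.0 in the control, 3305 in ethanol and 1139 in acetaldehyde, a 3.37-fold higher ethanol value. SUCLG2, a succinyl-CoA ligase subunit, read 359.5 and 601 (0.74), and PDP1 (-0.40) and MPC1 (-0.29) were the lowest of the list, whose median was 0.15. No gene of the other lists passed 1.5-fold in ethanol. Their furthest were UQCC1 (0.51) and SDHAF2 (0.32) against NUBPL (-0.32) and COA8 (-0.18) among assembly factors, and MRPL42 (0.40) and MRPL33 (0.25) against MRPS30 (-0.42) and MRPL52 (-0.41) among mitochondrial ribosomal proteins. Among electron carriers they were COQ5 (0.40) and COQ2 (0.28) against SLC25A5 (-0.25) and SLC25A4 (-0.14). PPARGC1A (0.23) and GABPA (0.12) stood against PPRC1 (-0.37) and PPARGC1B (-0.14) among regulators, and TK2 (0.24) and RRM2B (0.16) against TWNK (-0.26) and SSBP1 (-0.06) among genes of mitochondrial DNA. In the clone PDK4 read 3881 against 7096 in its control (1.83-fold lower), opposite to its ethanol difference.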

How the data were processed

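The deposited values are array intensities on a linear scale. Per the submitters' processing notes the authors used RMA, a method of background correction, quantile normalisation and summary over a set of probes, with no version stated. The 2 tables were treated as processed apart. The labels' protocols name one Gene ST design for exposures of 1 week and a further one for those of 4 weeks. The clone carries a label of 4 weeks but lies outside the table of the other 4-week cultures, and this was not settled. Array design and pair of cultures therefore cannot be told apart across tables.

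Log2 of each intensity was taken, and a difference is treated minus control within a table. Of 33297 probes, 19181 and 19460 had exactly 1 symbol, 2055 and 1754 had several, and 12061 and 12083 were unlisted. Several probes were found for 10 and 8 of the genes described. Alternatives covered the floor, centring, lowess with a span of 0.3, quantile normalisation, the mean of probes and structural subunits only. Python 3.11.15 with pandas 2.3.3, numpy 2.4.6 and statsmodels 0.14.6 was used, and the calculations were tested on simulated data. The precision is limited by 1 array per group.

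The genes, lists and thresholds were chosen with earlier results of these data known. Genes named are those at or past 1.5-fold in any comparison, the 3 highest and 3 lowest of each complex and of the assembly factors in the clone, complex II, CYC1, ATP5IF1 and isoform pairs by name, and other pathway genes past 2-fold in the clone or the 2 furthest each way in ethanol. Genes named beside them, among them NDUFAF7, NDUFS6 and NDUFB6, were chosen after their values were seen, as were the size of 1.2-fold, the split by pseudogenes, the brightness groups, the promoter motifs and the ribosomal protein list. Probes that share a symbol with another gene were left out of all counts.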

Additional observations from a re-analysis of the deposited data

Results flagged for a closer look

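Probes annotated to a gene of oxidative phosphorylation together with another gene were left out of the counts, and 4 of them were past 1.5-fold. With 11 past the floor in each comparison, these were 3 in the clone, 1 in ethanol and 0 in acetaldehyde. Among all genes past the floor, 25.6% were higher and 15.2% lower by that size in the clone. In ethanol the shares were 5.3% and 5.11%, so the counts are not read as a trait of these probes. In the clone both probes listed for POPDC2 and COX17, a copper chaperone of complex IV, were lower, with log2 differences of -0.94 (445 in the control, 232 in the clone) and -0.92 (611 and 324). COX17 has no probe of its own in that table, so no value stands beside them, and COX17 is not in the split of COX assembly factors above. In the exposure table the same probes are annotated to COX17 alone, and each was equal on all 3 arrays (291 and 398). A probe listed for ZNF789, PTCD1 and the ATP5MF-PTCD1 readthrough read 69.2 in the clone's control, under the floor, and 108 in the clone (0.64, at least 1.18-fold with the control at the floor). In ethanol a probe listed for TOM1L1 and COX11 was lower (1097 in the control, 721 in ethanol, -0.61), while another probe with the same symbols was slightly higher (0.17), as was the probe of COX11 alone (0.20). With 1 array per group these values have no replicate check.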

How the results depend on the processing

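Of 72 values recomputed under the alternatives, 69 moved by no more than 1.5 times (counts) or by under 0.1 (medians, log2), and 3 moved by more. The count of genes past 1.5-fold in ethanol went from 1 to 0 with the floor at the 75th percentile and with structural subunits only, since NDUFAF1 then drops out. The clone median went from -0.21 to -0.048 when the differences were centred. The split in the clone moved as well: 14 lower and 8 higher at 1.5-fold became 7 and 10 with centring (all genes 9.48% and 31.7%) and 22 and 5 after quantile normalisation (17.3% and 24.1%), and 3 lower at 2-fold became 2 with centring. No paired analysis was possible because each group has 1 array, and no array could be left out for the same reason. Dim genes near the floor are the least certain, since the floor is no measured background.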
